A study of Mus musculus with 3 samples.

Results

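The genes described here encode the regulators and executors of apoptosis, the programmed death of single cells, and were read in the normal mouse retina at postnatal day 7. They were chosen by name alone: a probe set belonged when its annotation gave 1 gene symbol and that symbol was one of a fixed set of family names (the Bcl2 family, caspases and apoptosome, inhibitors of apoptosis, death receptors with their adaptors, mitochondrial and nuclear executioners, and the Mdm, Bnip and Pdcd genes). This gave 94 of the 12488 probe sets on the array and 66 of 8251 named genes. Each of the 3 samples was total RNA from a pool of neural retinas of 3 to 4 wild-type mice, littermates of Rp1-/- animals on a mixed 129/SvEv and C57BL/6 background, collected between 1 and 2 pm and hybridised to an MG-U74Av2 array. With a single group there is no comparison of conditions, and the values show which genes had signal and how closely the pools matched. Pool numbers 1, 2 and 3 serve as names only. Nothing in the labels says whether the pools came from separate litters, so the spread between them may be partly technical.

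Apoptosis runs along connected routes. In the mitochondrial route, BH3 proteins such as Bcl2l11 and Bad favour pore formation by effectors like Bak1, while Bcl2, Bcl2l1 and Mcl1 oppose it. Cytochrome c (Cycs) released through the pores joins Apaf1 to activate Casp9. In the receptor route, ligands such as Fasl engage receptors with death domains, and Fadd and Tradd recruit Casp8. During the first weeks after birth the retina loses surplus neurons by apoptosis while photoreceptors and interneurons mature.

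Values are scaled intensities: the deposited linear intensity of a probe set, with the 3 arrays brought to a common median. A probe set counted as above background in a pool when it passed the 90th percentile of 49 measured genes of unrelated tissues (liver, pancreas, pituitary, testis and others). This bar lay at 303, 323 and 309 in pools 1, 2 and 3. Of the 49, 3 passed it in all pools themselves: Cel, Lhb and Krt10, with means of 508.3, 510.5 and 604.5. Passing the bar is therefore no proof of transcription in the retina. Each gene was represented by 1 probe set, an unsuffixed one where available. Intensities of different probe sets depend on their probes and are not set against each other, and genes under the bar may still have been transcribed. In these bulk samples, fewer cells of a type and less RNA per cell cannot be told apart. Markers of rods, a cell type of the neural retina, had signal, with 7 of 8 measured genes above the bar in all pools. Among them was Sag at 13718 ± 1455 (mean ± SD, n = 3 pools, as for all such values). Gnat1 (219, 699 and 680) and Prph2 (1261, 981 and 3901) varied between pools by the test described below (limma adjusted p = 0.0162 and 0.000291). Neither result was checked under the other settings of the closing section, where fewer probe sets of the array passed this test. The rod markers summed to 34780, 44244 and 41118 in pools 1, 2 and 3. Of the other tissues, 6 of 9 measured lens markers, 4 of 12 microglial, 2 of 8 endothelial, 1 of 4 pigment epithelial, 1 of 4 red blood cell and 0 of 8 lymphocyte markers were above it in all pools. The lens markers summed to 26799 in pool 1, 126923 in pool 2 and 136385 in pool 3, and the microglial ones to 2533, 2732 and 2937. The 3' to 5' ratio of the Actb control transcript, a measure of RNA length, was 1.81 in pool 1, 1.27 in pool 2 and 1.30 in pool 3. For the Gapdh control it differed less, at 0.874, 0.788 and 0.812.

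Of the 66 apoptosis genes, 29 (43.9%) were above background in all 3 pools, 4 in some pools and 33 in none. Over all 8251 named genes the shares were 44.1% in all pools and 45.2% in none, so the list as a whole had signal about as often as the array. The Mdm and Bnip genes (3 of 3 each), the anti-apoptotic Bcl2 proteins (4 of 5) and the Pdcd genes (5 of 7) were mostly above the bar. The apoptosome, the inhibitors of apoptosis and the executioners had 2 of 4 each, and the effector and BH3 proteins 3 of 6. Diablo was counted with the apoptosome though not part of that complex, and the nuclease inhibitor Dffa with the executioners. Other caspases had 2 of 8, Casp2 and Casp8ap2, of which Casp8ap2 is a Casp8-binding protein and not a caspase. Receptor adaptors had 3 of 9. The role of death receptors and ligand, which also holds the other Tnfrsf genes, had 0 of 13. These are counts of few genes and were not tested.

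**Figure D1:**
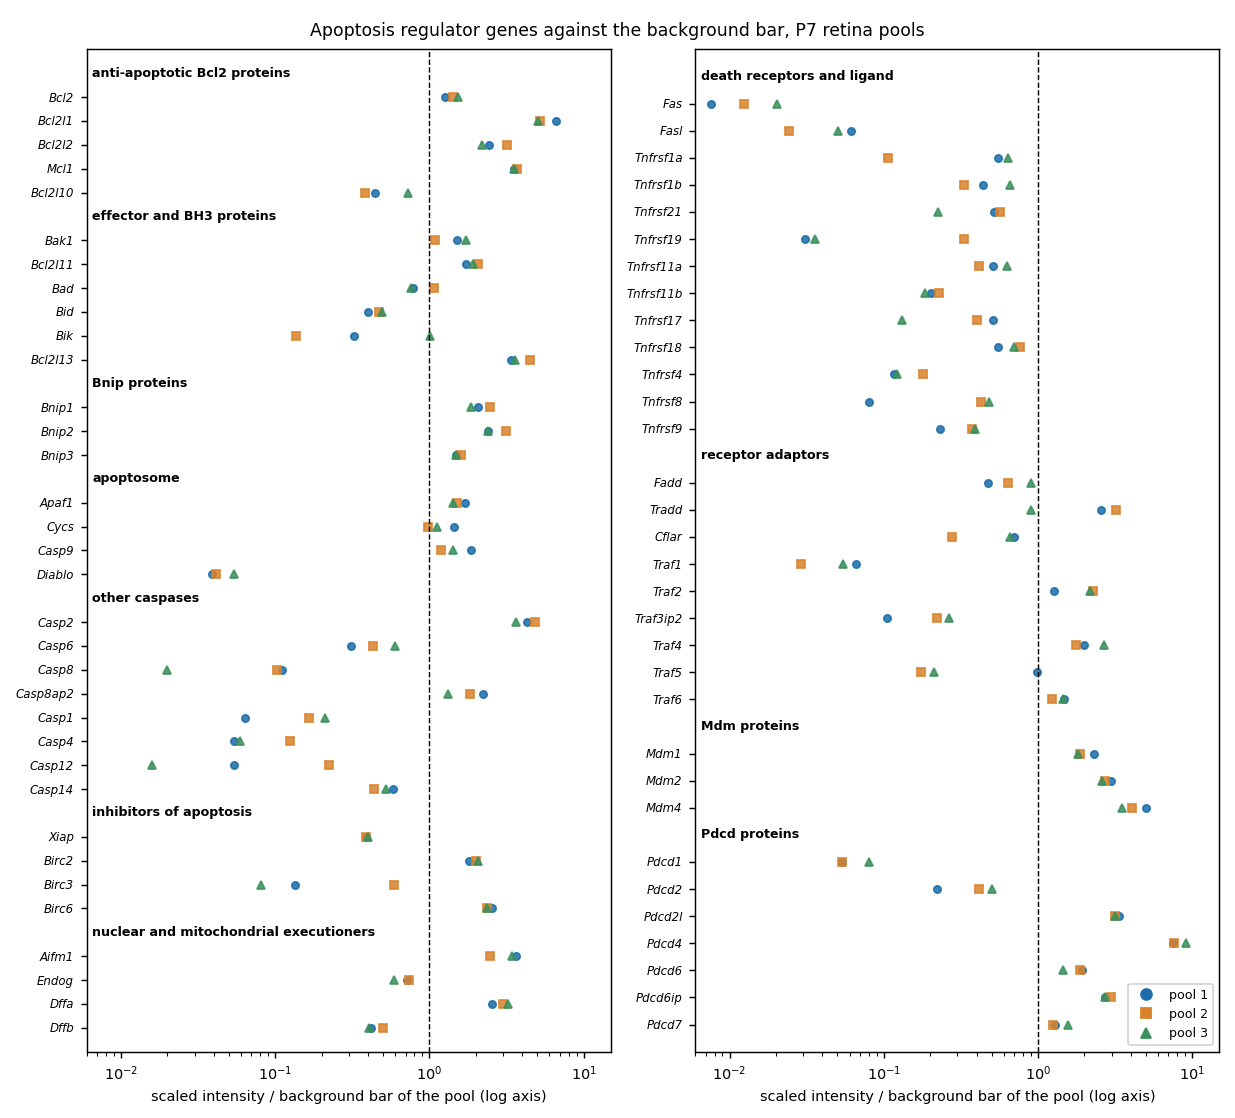
Scaled intensity of each of the 66 genes divided by the background bar of the same pool (log axis, dashed line at the bar), by role, with a marker for each of the 3 pools. All 13 genes of the death receptor and ligand role lie left of the line, while Bcl2l1, Mcl1, Casp2, Mdm4 and Pdcd4 lie right of it in every pool. Positions of different genes are not comparable as amounts of RNA.

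Genes with signal had promoters richer in CpG, a feature that the choice of genes did not use. CpG, a C followed by a G, was counted in the 300 bases around the start of each gene (250 before and 50 after) in RefSeq sequences of build GRCm38.p6, averaged over the listed starts. It reads alike on both strands, and 94.6% of the 32851 promoters in the table hold at least 1. The 29 genes above background in all pools had a median of 26.0 CpG (range 6.5 to 46), against 11.0 (3 to 43) for the 29 of 33 genes in no pool that had a promoter in the table. These medians are descriptions and were not tested. The same direction held over all named genes, with medians of 22.0 and 12.0, so nothing here is particular to the apoptosis genes. The ranges overlapped: Mdm4 (6.5) and Bcl2l2 (9) were above background with few CpG, and Tnfrsf11a (43), Diablo (42) and Dffb (32) below it with many.

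**Figure D2:**
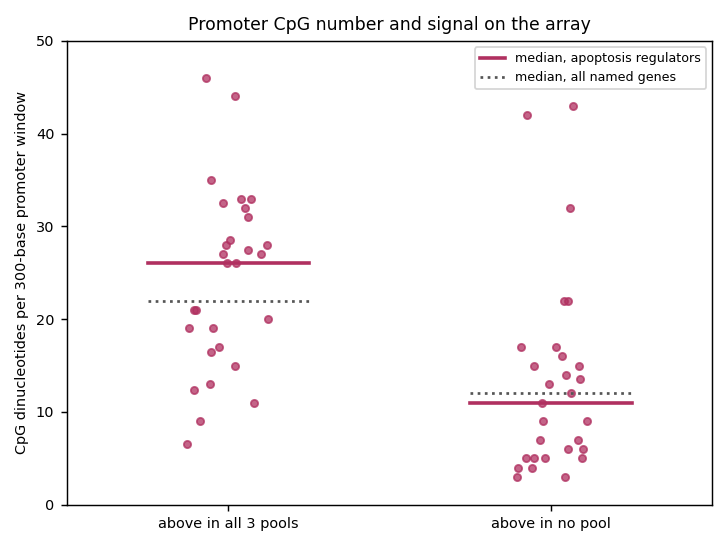
CpG dinucleotides per 300-base promoter window for the 29 apoptosis genes above background in all 3 pools and the 29 in none that had a promoter sequence (points), with their medians of 26.0 and 11.0 (red) and those of all named genes, 22.0 and 12.0 (dotted). The 2 sets overlap.

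To show what these counts look like, the promoters with the most CpG among genes above background and with the fewest among genes in no pool are given, from genes with a single listed start, with each CpG in capitals. Apaf1 and Bcl2 were above the bar in all pools, and Casp1 and Casp12 in none.
Apaf1 (GRCm38.p6, chr10:91082694-91082993, minus strand, 46 CpG): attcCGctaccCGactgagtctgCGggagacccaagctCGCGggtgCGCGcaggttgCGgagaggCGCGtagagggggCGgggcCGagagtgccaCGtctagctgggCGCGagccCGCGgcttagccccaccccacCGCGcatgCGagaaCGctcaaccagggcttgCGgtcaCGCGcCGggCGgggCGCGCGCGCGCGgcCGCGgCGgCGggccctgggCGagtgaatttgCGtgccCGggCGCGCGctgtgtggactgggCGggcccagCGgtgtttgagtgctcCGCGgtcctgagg
Bcl2 (GRCm38.p6, chr1:106714241-106714540, minus strand, 44 CpG): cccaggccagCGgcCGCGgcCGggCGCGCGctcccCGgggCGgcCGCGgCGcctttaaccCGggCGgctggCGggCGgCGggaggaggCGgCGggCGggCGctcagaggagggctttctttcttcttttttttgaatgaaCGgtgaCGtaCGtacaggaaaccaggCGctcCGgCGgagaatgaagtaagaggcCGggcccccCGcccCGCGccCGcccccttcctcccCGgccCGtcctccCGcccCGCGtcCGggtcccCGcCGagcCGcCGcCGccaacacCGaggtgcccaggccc
Casp1 (GRCm38.p6, chr9:5298267-5298566, plus strand, 3 CpG): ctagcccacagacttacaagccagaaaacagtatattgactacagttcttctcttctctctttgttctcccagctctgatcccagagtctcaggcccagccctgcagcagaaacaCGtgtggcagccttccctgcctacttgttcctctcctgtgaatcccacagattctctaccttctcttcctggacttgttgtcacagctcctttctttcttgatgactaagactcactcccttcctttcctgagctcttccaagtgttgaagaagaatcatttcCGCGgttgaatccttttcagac
Casp12 (GRCm38.p6, chr9:5345226-5345525, plus strand, 3 CpG): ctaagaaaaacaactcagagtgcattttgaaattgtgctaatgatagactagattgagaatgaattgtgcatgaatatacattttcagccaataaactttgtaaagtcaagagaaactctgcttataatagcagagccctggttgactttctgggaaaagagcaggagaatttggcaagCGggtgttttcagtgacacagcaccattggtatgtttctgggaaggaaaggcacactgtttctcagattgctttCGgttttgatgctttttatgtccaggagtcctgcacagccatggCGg
The first pair hold clusters of CpG along most of their length, and the second pair hold 3 each. A count of CpG describes the letters of these windows and says nothing of their methylation in these retinas, which was not measured.

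The anti-apoptotic side of the Bcl2 family had signal in 4 of its 5 measured genes. Bcl2l1, which encodes the survival protein Bcl-x, had intensities of 2021, 1693 and 1571 in pools 1, 2 and 3, and Mcl1, a short-lived protein that restrains Bak1, had 1077, 1184 and 1093. Bcl2l2, which encodes Bcl-w, was at 735, 1026 and 673, and Bcl2, the founding member, at 385, 455 and 473. All 4 stayed above the bar of each pool, Mcl1 with a spread of only 0.07 (SD, log2) and Bcl2l2 with 0.32. Bcl2l10, also known as Diva, was below the bar in every pool, at 135, 123 and 224.

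On the pro-apoptotic side, Bak1, which opens the outer mitochondrial membrane, was at 460, 353 and 537, and in pool 2 it passed the bar by a factor of only 1.09. The BH3 gene Bcl2l11, which encodes Bim, had 526, 668 and 588. Bcl2l13, a mitochondrial family member known as a receptor for mitophagy, had 1026, 1445 and 1109. These 3 were above background throughout. Bad, a BH3 protein controlled by survival kinases, was at 238, 345 and 235, above the bar in pool 2 alone. Another probe set of Bad, which carries a letter suffix, was above the bar in all pools at 403, 393 and 599. Bid, the BH3 protein that links death receptors to mitochondria, stayed below at 122, 152 and 152. Bik crossed it by a factor of 1.01 in pool 3 alone, at 98.3, 43.8 and 312. The Bnip genes were above the bar in every pool: Bnip3, a mitophagy receptor induced by low oxygen, at 452, 515 and 462, Bnip2 at 733, 1005 and 746, and Bnip1, a SNARE protein of the endoplasmic reticulum, at 631, 800 and 575.

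The apoptosome, the complex of Apaf1 and cytochrome c that activates Casp9, had signal in its scaffold and in its caspase. Apaf1 was at 519, 484 and 441 and Casp9 at 568, 385 and 439, and neither fell below the bar in any pool. Cycs lay at the bar, with 435, 316 and 346, just under it in pool 2 at a ratio of 0.979. Diablo, the mitochondrial protein that displaces inhibitors from caspases, gave 11.8, 13.4 and 16.8, under the floor of 42.2 that was set before the log2 step.

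Among the other caspases, Casp2, an initiator with a nuclear pool, was at 1295, 1562 and 1131 in pools 1, 2 and 3. Casp8ap2, a nuclear protein named for its binding to Casp8 and known from histone mRNA processing, was at 677, 592 and 408, lowest in pool 3 but above the bar there. The remaining 6 were below background in every pool. Casp8, the receptor-route initiator, was at 33.4, 33.1 and 6.14, and Casp6, an executioner, at 94.5, 138 and 185. The inflammatory caspases Casp1 (19.3, 53.3 and 65.2) and Casp4 (16.4, 40.2 and 18.2), together with Casp12 (16.4, 72.1 and 4.89) and the epidermal Casp14 (176, 141 and 162), showed no signal above the bar either. In the RefSeq gene table Casp1, Casp4 and Casp12 follow each other on chromosome 9 with no protein-coding gene between them, as do Cflar and Casp8 on chromosome 1.

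The inhibitors of apoptosis, which bind caspases or mark proteins with ubiquitin, divided evenly. Birc6, a very large ubiquitin-conjugating member, was at 772, 767 and 733, and Birc2, a ubiquitin ligase of TNF receptor complexes, at 550, 651 and 640, above the bar and with log2 SDs of 0.04 and 0.13. Xiap, the direct caspase inhibitor, was below the bar by each of its 3 probe sets, the representing one at 118, 125 and 124. Birc3, the close relative of Birc2, was below it at 40.6, 190 and 25. Birc2 and Birc3 are neighbours on chromosome 9 and fell on opposite sides of the bar by their representing probe sets, as did the chromosome 6 neighbours Bcl2l13 and Bid. A second Birc2 probe set, which carries a letter suffix, was below the bar, as Birc3 was. The Tnfrsf4 and Tnfrsf18 genes, and Tnfrsf1b and Tnfrsf8, are neighbours on chromosome 4 and were below the bar throughout.

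For the executioners of the nucleus and mitochondria, Aifm1, a flavoprotein of the mitochondrial inner membrane that can move to the nucleus, was at 1102, 793 and 1059. Dffa, the inhibitor and chaperone of the DNA-cutting nuclease, was at 775, 961 and 992, and a further probe set of Dffa was above the bar as well, at 469, 567 and 385. The nuclease itself, Dffb, was below it at 127, 160 and 126, and the mitochondrial nuclease Endog at 217, 238 and 181. Inhibitor and nuclease thus fell on opposite sides of the bar in all pools.

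No gene of the death receptor role, which holds Fas, Fasl and all Tnfrsf genes measured here, was above background in any pool. Many of these receptors, among them Tnfrsf18, carry no death domain, so the role is wider than the death receptors proper. Tnfrsf18, a costimulatory receptor of T cells, came closest as a proportion of the bar, at 167, 248 and 215. Tnfrsf1a, the main TNF receptor, was at 168, 34.4 and 197, and its other probe set at 196, 91.2 and 186, both lowest in pool 2. Fas was at 2.31, 4.03 and 6.23 by its representing probe set and at 109, 44.6 and 76.6 by a control probe set that carries its name, and its ligand gene Fasl was at 18.6, 7.84 and 15.6. Tnfrsf21, a death receptor known from neurons, was at 157, 183 and 69.3. The others ranged from 9.33 for Tnfrsf19 in pool 1 to 205 for Tnfrsf1b in pool 3 and comprised Tnfrsf4, Tnfrsf8, Tnfrsf9, Tnfrsf11a, Tnfrsf11b and Tnfrsf17 besides these, genes known mainly from lymphocytes or bone. No measured lymphocyte marker was above the bar in all pools, though Cd4 passed it in pool 3 (232, 261.5 and 622). The lymphocyte markers summed to 770, 784 and 1066, and any link to the receptor values was not tested.

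Adaptors that pass on receptor signals had signal in Traf2, Traf4 and Traf6. Traf2, a scaffold of TNF receptor complexes, was at 386, 731 and 674, lowest in pool 1, although this spread did not pass the test described below (limma adjusted p = 0.831). Traf4, a member with roles in development, was at 602, 565 and 826, and Traf6, a ubiquitin ligase of Toll-like and interleukin receptors, at 450, 396 and 445. Fadd, the death domain adaptor, was below the bar in every pool (145, 205 and 279), as was Cflar, the inhibitor of Casp8 activation (212, 89.9 and 204). Traf5 was at 301, 56.4 and 65.1, nearly at the bar in pool 1 alone, and Traf1 and Traf3ip2 stayed between 9.37 and 81.3.

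Tradd, the adaptor of the TNF receptor, was the exception in its spread. It was at 778 in pool 1 and 1037 in pool 2, but at 278 in pool 3, just under the bar there. The variance of each bright probe set over the pools was tested against the variance usual at its level, and of 39 such probe sets of the apoptosis genes Tradd's was the single one called (limma adjusted p = 0.00376, log2 SD 1.00, n = 3). Over the whole array 83 of 6211 tested probe sets, 1.34%, were called, against 1 of 39 here. Its probe set carries the suffix for relaxed probe selection, and no other probe set of the gene was available for comparison. The call was lost without scaling (adjusted p = 0.389), after quantile normalisation (adjusted p = 0.286) and without limma's robust option (adjusted p = 0.0723). It was also lost without pool 2 (adjusted p = 0.722) or pool 3 (adjusted p = 0.996), but not without pool 1 (adjusted p = 0.00543). Of the marker lists, the summed red blood cell markers had the same order of pools as Tradd, at 3177, 6931 and 3035. Most of that sum was Hba-a1 (2914, 6705 and 2821). Alas2 had the same order, and Slc4a1 and Epb42 did not. The summed endothelial markers were also lowest in pool 3, at 2776, 2682 and 2397. Among them Kdr, Cdh5, Cldn5 and Eng were lowest in pool 3, and Flt1, Tek, Tie1 and Pecam1 were not. The rod, lens, microglial, lymphocyte and pigment epithelial sums were lowest in pool 1, the last at 623, 888 and 1014. The part of any of these in the Tradd value was not tested.

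The spread of the 39 tested probe sets, which read 32 of the 66 genes, was near that of the array. The median log2 SD over the pools was 0.23 for the 39 tested probe sets and 0.26 for all 6211. The highest pool was under 1.5 times the lowest for 31 of the 39 (79.5%), against 63.1% of all tested probe sets, and over 2 times for 2 of them (5.13%), against 8.63%. The second of these was a further probe set of Bcl2l11 at 159, 233 and 438, which was not called (limma adjusted p = 0.636) and did not follow the representing probe set. At an unadjusted p below 0.05 there were 2 of 39 (5.13%), against 6.76% of all. Ratios of the highest pool to the lowest were largest among genes left untested as too dim. They reached 14.7 for Casp12, 11.5 for Tnfrsf19, 7.60 for Birc3 and 7.14 for Bik. Next came Tnfrsf8 (6.065), Tnfrsf1a (5.72), Casp8 (5.44) and Traf5 (5.33). These ratios used unfloored values, and except in Bik and Traf5 the lowest was under the floor of 42.2. No variation between pools is read from them. The steadiest representing probe sets above the bar were those of Birc6, Pdcd2l, Mcl1 and Mdm2, with log2 SDs of 0.04, 0.04, 0.07 and 0.09.

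**Figure D3:**
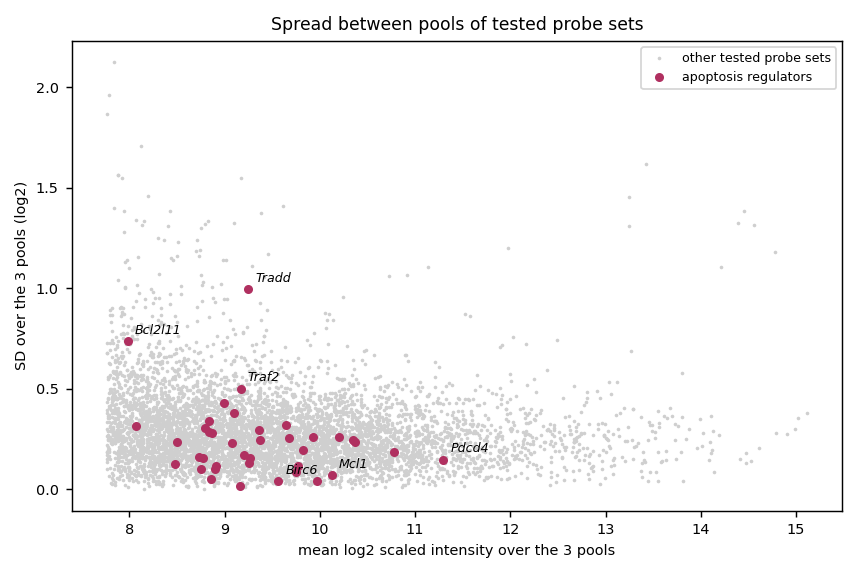
Standard deviation over the 3 pools against mean level, both on the log2 scale, for the 6211 tested probe sets (grey) and the 39 among them that read apoptosis regulators (red). Tradd stands at 1.00, while the median of the red points is 0.23.

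The 29 genes above background had median log2 deviations from their own means of -0.05 in pool 1, 0.06 in pool 2 and -0.05 in pool 3, against -0.05, 0.13 and -0.09 for all 3642 such genes. These signs depend on the scaling: without it the medians were 0.01, -0.06 and 0.01, and after quantile normalisation -0.01, -0.03 and 0.02, so no direction is read from them. Of the 29, 10 were highest in pool 1, 13 in pool 2 and 6 in pool 3, against 25.4%, 58.0% and 16.6% of all such genes. The lowest value was in pool 1 for 12, in pool 2 for 5 and in pool 3 for 12, against 38.0%, 14.6% and 47.4% of all. These counts were made on scaled values only and depend on the scaling too. Mcl1, for example, was highest in pool 2 as scaled but in pool 3 as deposited (1119, 1087 and 1140). Between pairs of pools the median absolute log2 difference of the 29 genes was 0.22, 0.22 and 0.18 (pools 1 and 2, 1 and 3, 2 and 3), against 0.28, 0.24 and 0.29 for all.

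The Mdm genes were above background in all 3 pools. Mdm2, a ubiquitin ligase that restrains the transcriptional response to DNA damage, was at 907, 872 and 808. Mdm4, its partner, was at 1532, 1315 and 1088, and Mdm1, a centriole protein whose loss leads to retinal degeneration in mice, at 696, 604 and 560. All 3 were highest in pool 1, but none passed the test for excess spread (log2 SD 0.09 and limma adjusted p = 0.998 for Mdm2, 0.25 and 0.992 for Mdm4, 0.16 and 0.992 for Mdm1). The Pdcd genes share a name, not a function. Pdcd4, an inhibitor of translation initiation, was at 2285, 2473 and 2802, and Pdcd6ip, which encodes the membrane-scission protein Alix, at 827, 960 and 842. Pdcd6, the calcium-binding partner of Alix, was at 585, 600 and 448. Pdcd2l was at 1013, 1026 and 968 and Pdcd7, a splicing protein in human cells, at 392, 406 and 484, while the immune checkpoint receptor gene Pdcd1 (16.2, 17.3 and 24.9) and Pdcd2 (67.2, 135 and 156) were below the bar.

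Where a gene had more than 1 probe set, these often fell on opposite sides of the bar. That was so for 11 of the 21 such genes (52.4%), with one probe set above it in all pools and another in none, against 33.9% of the 2073 such genes on the array. For Bcl2l1 the second probe set was at 26.0, 47.8 and 47.6, for Mdm4 at 31.9, 20.4 and 27.1, and for Casp8ap2 at 18.2, 10.1 and 6.81. Bcl2 had 2 further probe sets below the bar, at 31.4, 38.0 and 76.8 and at 201, 193 and 97.0, so that its signal rests on 1 of 3. For each of these 4 genes, the choice of probe set alone puts the gene above or below background. The second probe set was at 178, 166 and 230 for Birc2, at 212, 155 and 280 for Casp2, at 4.71, 77.0 and 59.2 for Bnip1, at 129, 72.8 and 134 for Pdcd6 and at 199, 141 and 125 for Pdcd6ip. Those of Birc2, Casp2, Bnip1 and Pdcd6 carry a letter suffix, which the choice of representing probe set avoided where it could. Traf6 had 2 further probe sets below the bar, at 186, 105 and 202 and at 22.5, 123 and 243. Bcl2l11 had 1 in no pool, at 8.47, 69.8 and 63.1, beside the one already given, which passed the bar in pool 3 alone. For Bnip2, Dffa and Traf4 every probe set was above the bar in all pools, and for Casp9 3 of 4 were. Those of Xiap, Tnfrsf1a, Tnfrsf8, Tnfrsf9 and Bcl2l10 were all below it. Which transcript or end each probe set reads was not analysed here.

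**Figure D4:**
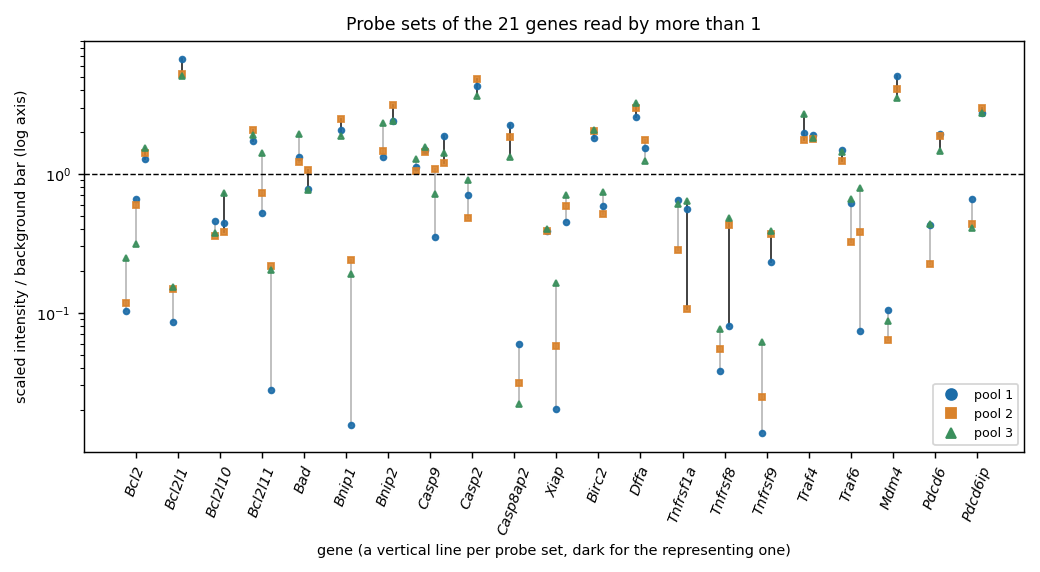
Every probe set of the 21 genes read by more than 1, as scaled intensity over the background bar of the pool (log axis, dashed line at the bar), with a marker per pool and a dark line for the probe set that represents the gene. Bcl2l1, Mdm4 and Casp8ap2 each have a probe set well above the line and another far below it.

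The genes just inside and just outside the bar show how much the counts rest on its position. In their lowest pool Casp9, Bak1 and Traf6 stood at 1.19, 1.09 and 1.23 times the bar, and Cycs and Tradd at 0.979 and 0.900 times it. With the 75th percentile of the same unrelated genes as the bar (162, 161 and 185), 33 of the 66 genes were above it, with Bad, Cycs, Tnfrsf18 and Tradd added, against 56.5% of all genes. With the 95th percentile (418, 415 and 541), 19 (28.8%) were, against 32.3% of all genes, and Apaf1, Bak1, Bcl2, Bnip3, Casp8ap2, Casp9, Pdcd6, Pdcd7, Traf2 and Traf6 dropped out.

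Genes that work around the apoptosis regulators were counted from 6 further lists. Of the genes induced in the DNA damage response, 8 of 13 measured were above background in all pools, among them the cell cycle inhibitor Cdkn1a (399, 398 and 506), the stress sensor Gadd45a (552, 644 and 478) and Sesn1 (1445, 1769 and 1205). Survival signalling had 9 of 12, with the kinases Akt1 (1387, 1393 and 1014) and Akt2 (433, 783 and 397) and the lipid kinase subunit Pik3ca (824, 1240 and 1288). The neurotrophin receptor genes Ntrk2 and Ntrk3 and the neurotrophin gene Bdnf were in none. The stress kinase list had 8 of 11, with Mapk8 at 1362, 1910 and 1922, Mapk9 at 424, 975 and 537 and Mapk10 at 544, 533 and 345, the kinases that phosphorylate Jun. All 3 shares were above the 44.1% of all genes.

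Caspase substrates had 6 of 13, close to the share of all genes, with Parp1 (473, 566 and 350), Parp2 (1264, 1226 and 934) and the chromatin-condensing factor Acin1 (1402, 1370 and 1341). TNF and NF-kB signalling had 3 of 14: Rela (1255, 1565 and 1244), Nfkbia (797, 945 and 858) and Ikbkg (352, 385 and 501). The ligand genes Tnf, Ltb, Tnfsf10 and Tnfsf11 were below background in every pool, as the receptors were. In the clearance of dead cells 4 of 11 were above it, among them the bridging proteins Gas6 (675, 633 and 707) and Mfge8 (4496, 6552 and 5768) and the integrin Itgb5 (829, 1483 and 1367), while the receptor kinases Mertk, Axl and Tyro3 were not. Over the 6 lists a single gene had excess spread, the lipid kinase subunit Pik3r1 of the survival list, at 549, 1701 and 1406 (limma adjusted p = 0.0103). That is 1 of 50 tested genes, against 1.34% of the array. Unlike that of Tradd, the call of Pik3r1 was not checked under other settings. Pool 1, its low pool, was also low in the lens markers, of which 8 of 8 tested were called, and had the highest Actb ratio, and their part in the Pik3r1 value was not tested.

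**Figure D5:**
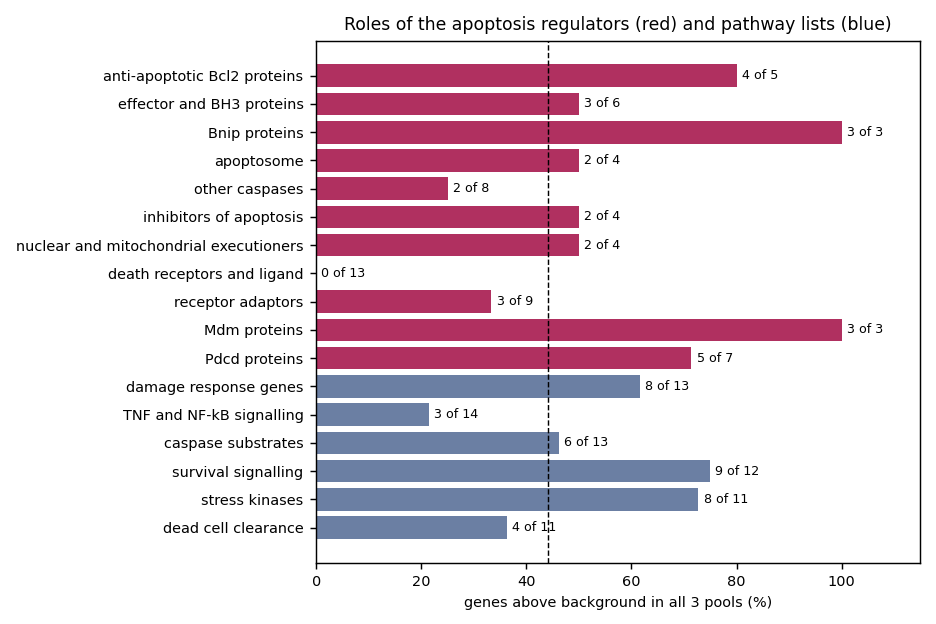
Percent of measured genes above background in all 3 pools for each role of the apoptosis regulators (red) and for 6 lists of related pathways (blue), with the counts beside the bars and a dashed line at the 44.1% of all named genes. The role of death receptors and ligand, which also holds other Tnfrsf genes, stands at 0 of 13. Other caspases include Casp8ap2, the apoptosome Diablo and the executioners the inhibitor Dffa. TNF and NF-kB signalling stands at 3 of 14.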

How the data were processed

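The deposited table holds linear intensity values for the 3 arrays. Which program made them is not given in the sources used here. A scaling step by the authors is visible in the deposited values, whose 2%-trimmed means were 500.2, 500.3 and 500.2. Genes were named from the platform annotation, with symbols checked by gene ID in a RefSeq table of GRCm38.p6. Of 12422 probe sets that are not controls, 10833 had 1 gene, 396 several and 1193 none. All 94 member probe sets were found by gene ID, and 5 probe sets that pair a matching symbol with others were left out.

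Arrays were divided by their median and multiplied by the mean median (factors 0.962, 1.09 and 0.959, log2 shifts -0.06, 0.12 and -0.06), floored at the 20th percentile of all values, 42.2, and put on the log2 scale. A gene's probe set was one without a letter suffix, then that with the highest mean. Spread between pools was tested on the brighter 50% of probe sets: the variance (2 residual degrees of freedom) against the prior variance of limma 3.58.1 squeezeVar (R 4.3.3, robust, mean level as covariate), with upper-tail p-values at the highest prior degrees of freedom and Benjamini-Hochberg adjustment over all 6211, at 0.05. The p-values depend on these prior degrees of freedom, fitted at 279 in the main setting. They were 8.56 without scaling, 8.66 after quantile normalisation, 19.2 without the robust option and 0.851 with dim probe sets included. Leaving out pool 2 gave 7.96. Leaving out pool 1 or pool 3, or keeping the brightest 25%, gave an infinite value. The test uses no grouping. It was run on simulated data in which each probe set had exactly the prior variance of its level. That run therefore says nothing of how the test behaves when variances depart from the prior. The number of arrays limits the precision. Pairs of arrays shared 11 or 12 equal values of 12488, so none was deposited more than once.

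The members, gene lists and tests were chosen with earlier results of these data known. Every member gene is named, with pool values for those above background in all pools, with excess spread or with opposed probe sets, and for others to complete a role. From each further list the first 3 genes above background in written order are given; its genes in no pool and Pik3r1 were named after their values were seen. The alternatives tried were other scalings, bars, floors, filters and probe set choices, limma without its robust option, and leaving out each pool. A few members of these families are not analysed here.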

Additional observations from a re-analysis of the deposited data

How the results depend on the processing

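The number of apoptosis genes above background in all pools, 29, was 29 without scaling and after quantile normalisation, 33 with the bar at the 75th percentile of the unrelated genes (56.5% of all genes), 30 by any probe set (45.5%, against 45.6% of all), 23 when each gene was read by its brightest probe set, which also raised the bar to 388, 402 and 425 (34.8%, against 38.3%), and 19 with the bar at the 95th percentile (28.8%, against 32.3%). It was 29 to 30 when each pool was left out. The bar moves with each array's scale, so the equal count without scaling follows from the construction. Excess spread was called for 1 probe set, Tradd, also with the floor at the 10th percentile and with a pseudocount of 50. The count was 0 without scaling, 0 by quantile normalisation, 0 over all probe sets, dim ones included, 0 among the brightest 25%, where Tradd was not tested, and 0 without limma's robust option. Leaving out single pools gave 0 to 1: it was 1 without pool 1 and 0 without pool 2 or pool 3. At an unadjusted p below 0.05 these settings with 0 had 1 of 39, 1 of 39, 9 of 93, 0 of 16 and 2 of 39 probe sets, against 313 of 6211, 340 of 6211, 1612 of 12422, 165 of 3106 and 329 of 6211 over the array. The causes were not tested. The same settings took the calls over the whole array from 83 to 6, 6, 0, 27 and 38, and leaving out pools 1, 2 and 3 took them to 30, 9 and 23. The median log2 SD of the apoptosis probe sets stayed between 0.15 and 0.26. Median deviations per pool stayed between -0.07 and 0.08. No paired analysis was possible because the samples form 1 group. With 3 arrays and no detection calls used here, genes near the bar cannot be placed firmly on either side of it.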
